A study of Mus musculus with 16 samples.

Results

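The immediate early response genes described here are 10 named genes, Fos, Fosb, Jun, Junb, Egr1, Atf3, Ier2, Ier3, Dusp1 and Myc, out of 24411 gene symbols counted in mouse pancreas. They are a list of names, drawn up with earlier results of these data known, and each of the 10 was found under its symbol. In edgeR's test over all 16 mice no member passed an adjusted p of 0.05 between the groups with batch as a covariate, where 9.07% of all genes did between obese and WT mice, 0.0586% between obese mice with and without a CCK receptor antagonist and 5.57% between treated obese and WT mice. Without the batch term Ier2 passed in the last of these, with 10.5% of all genes. DESeq2 called Myc lower in obese than in WT mice, with 12.4% of all genes called, and edgeR on batch A alone called Egr1 and Myc lower, with 8.68%. The 9 members with reads in every mouse varied by up to 16.8-fold among the mice, and 1 of the 9 tested, Ier2, differed between the 2 batches of libraries, where 35.7% of all genes did.

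RNA was sequenced from whole pancreas of 16 male C57BL6/J mice killed at 12 weeks of age. There were 5 WT mice on control water, 7 Lep(ob/ob) mice on control water, which lack leptin and become obese, and 4 Lep(ob/ob) mice whose drinking water held a CCK receptor antagonist for 6 weeks from 6 weeks of age (CCKRi). Of these 4 mice, analysed as 1 group, 2 drank proglumide (0.1 mg/mL) and 2 lorglumide (0.05 mg/mL). The comparison of Lep(ob/ob) with WT asks how the pancreas differs with leptin loss and obesity, which these groups cannot tell apart. That of CCKRi with Lep(ob/ob) asks what part of this difference needs signalling through CCK receptors. The labels give 2 batches. All 4 CCKRi mice were in batch B together with 2 of the WT and 3 of the Lep(ob/ob) mice, and the other 3 WT and 4 Lep(ob/ob) mice made up batch A. No WT mouse received an antagonist. The labels have the WT mice bred in house and the Lep(ob/ob) mice purchased, while the study's methods have both purchased, so source and genotype may coincide. WT mice weighed 27.7 ± 3.22 g (SD, n = 5), while Lep(ob/ob) mice weighed 51.0 ± 1.98 g (n = 7) and CCKRi mice 54.8 ± 2.22 g (n = 4).

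Immediate early genes are transcribed within minutes of a stimulus, from factors already present in the cell, and their RNAs are short-lived. Fos and Jun family proteins pair to form AP-1, a dimeric transcription factor, while Egr1 is a zinc finger factor, Atf3 a stress-induced factor of the ATF/CREB family and Myc a factor that drives growth. Dusp1 encodes a phosphatase that switches off the MAP kinases that induce these genes. In acinar cells, which make the digestive enzymes, CCK binds a receptor that couples through Gq to calcium and MAP kinases, and strong stimulation by CCK or its analogues induces early genes. The same genes respond to the killing and dissection of an animal, and the time from death to freezing is not given in the sources used here.

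Promoters of 4 members are shown, namely Fos and the 3 in the promoter table whose correlation with it passed both by r and by rho, Dusp1, Fosb and Ier3, so that they can be compared at a site through which signalling to early genes is known to act. The sequences are from RefSeq on GRCm38.p6, each the 160 bases before the start site read 5′ to 3′ on the strand of the gene. Capitals mark TGACG or its reverse complement CGTCA, the core of the cAMP response element bound by CREB and ATF proteins.
Fos, chr12:85473730-85473889, plus strand: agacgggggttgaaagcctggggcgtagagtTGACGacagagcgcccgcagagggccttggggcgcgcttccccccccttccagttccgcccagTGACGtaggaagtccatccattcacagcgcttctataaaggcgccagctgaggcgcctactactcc
Dusp1, chr17:26508473-26508632, minus strand: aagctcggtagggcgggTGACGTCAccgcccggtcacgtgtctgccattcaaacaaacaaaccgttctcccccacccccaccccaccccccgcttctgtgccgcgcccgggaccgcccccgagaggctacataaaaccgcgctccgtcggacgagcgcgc
Fosb, chr7:19310046-19310205, minus strand: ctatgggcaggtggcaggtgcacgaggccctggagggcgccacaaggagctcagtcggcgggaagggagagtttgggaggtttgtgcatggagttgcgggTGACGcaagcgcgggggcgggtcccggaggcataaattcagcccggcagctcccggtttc
Ier3, chr17:35821553-35821712, plus strand: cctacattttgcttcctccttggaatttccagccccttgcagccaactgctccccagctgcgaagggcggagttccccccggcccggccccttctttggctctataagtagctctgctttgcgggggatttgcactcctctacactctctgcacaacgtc

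The table held promoters of 7 of the 10 members, with Egr1, Ier2 and Myc named only. The half-site TGACG, on either strand and within 250 bases before the start, was in 5 of these 7, namely Fos, Fosb, Junb, Atf3 and Dusp1, against 17.8% of 32851 promoters. In Fos it occurred at 2 places, the nearer of them 66 bases before the start, in Fosb it lay 60 bases and in Atf3 7 bases before it, while Ier3 and Jun had none. In Dusp1 the site at 143 bases was part of the whole 8-base palindrome, which 1.55% of all promoters held and no other member did, and a further half-site lay at 191 bases, outside the stretch printed. The AP-1 site TGANTCA, on either strand, was in none of the 7 and in 6.75% of all promoters, and the CArG box, the site of serum response factor, was in none of the 7 and in 1.47%. These matches describe the letters of a short window only.

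The libraries held 9.87 to 34.5 M (mega) counted reads, with 19.2 to 34.5 M in batch A and 9.87 to 15.9 M in batch B, and the 10 members together took 603 to 2041 reads per mouse. Acinar markers were high in all mice, with 172854 to 336374 CPM (counts scaled to a common library total) summed over 8 genes, the tissue the labels name being pancreas. Markers of other cells in the gland differed with group and batch. Those of islets summed to 856 to 1940 CPM in WT mice, but to 3220 to 9634 CPM with the Lep mutation alone and 3367 to 17690 CPM with an antagonist. Adipocyte markers, which fat taken with the gland would carry, summed to 5290 CPM in Lep(ob/ob) mouse 463 and 4692 CPM in CCKRi mouse 69, and to at most 987 CPM in the other 14 mice. An earlier analysis of these data set aside 4 mice for adipocyte and lymph node markers, these 2 and Lep(ob/ob) mice 417 and 461, but by the adipocyte sums alone mouse 417 (824 CPM) lay below CCKRi mice 72 and 74 (939 and 836 CPM). Lep RNA was at 17.5 to 64.7 normalized counts in WT and at 254 to 8655 in the untreated mice that carry a point mutation in Lep, so that its level does not test the genotype. In whole tissue, fewer cells of a type and less RNA per cell cannot be told apart.

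As levels per length, in normalized counts per kb of exon averaged over the 16 mice, Myc stood highest at 108 ± 23.2 (SD, n = 16), followed by Ier2 at 99.2 ± 43.4 and Jun at 75.1 ± 22.5. Dusp1 at 35.4 ± 15.8, Junb at 32.9 ± 17.2 and Ier3 at 26.2 ± 10.6 formed the middle of the order. Atf3 at 19.1 ± 15.7, Egr1 at 16.1 ± 10.7, Fos at 8.65 ± 7.66 and Fosb at 0.842 ± 0.798 stood lowest. Jun was above Dusp1 and Fos above Fosb in 16 of 16 mice. Dusp1 was above Junb in 9, Junb above Ier3 in 10 and Atf3 above Egr1 in 10, so that these neighbours did not differ beyond their spread. Myc was above Ier2 in 10, and the order of their means was not the same in both batches. In batch A they were at 111 ± 29.9 for Myc and 140 ± 33.6 for Ier2 (SD, n = 7). In batch B they were at 106 ± 17.9 and 67.8 ± 11.7 (n = 9). A normalized count is the reads on a gene divided by 1 size factor per mouse, and is the scale of the values that follow.

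**Figure D1:**
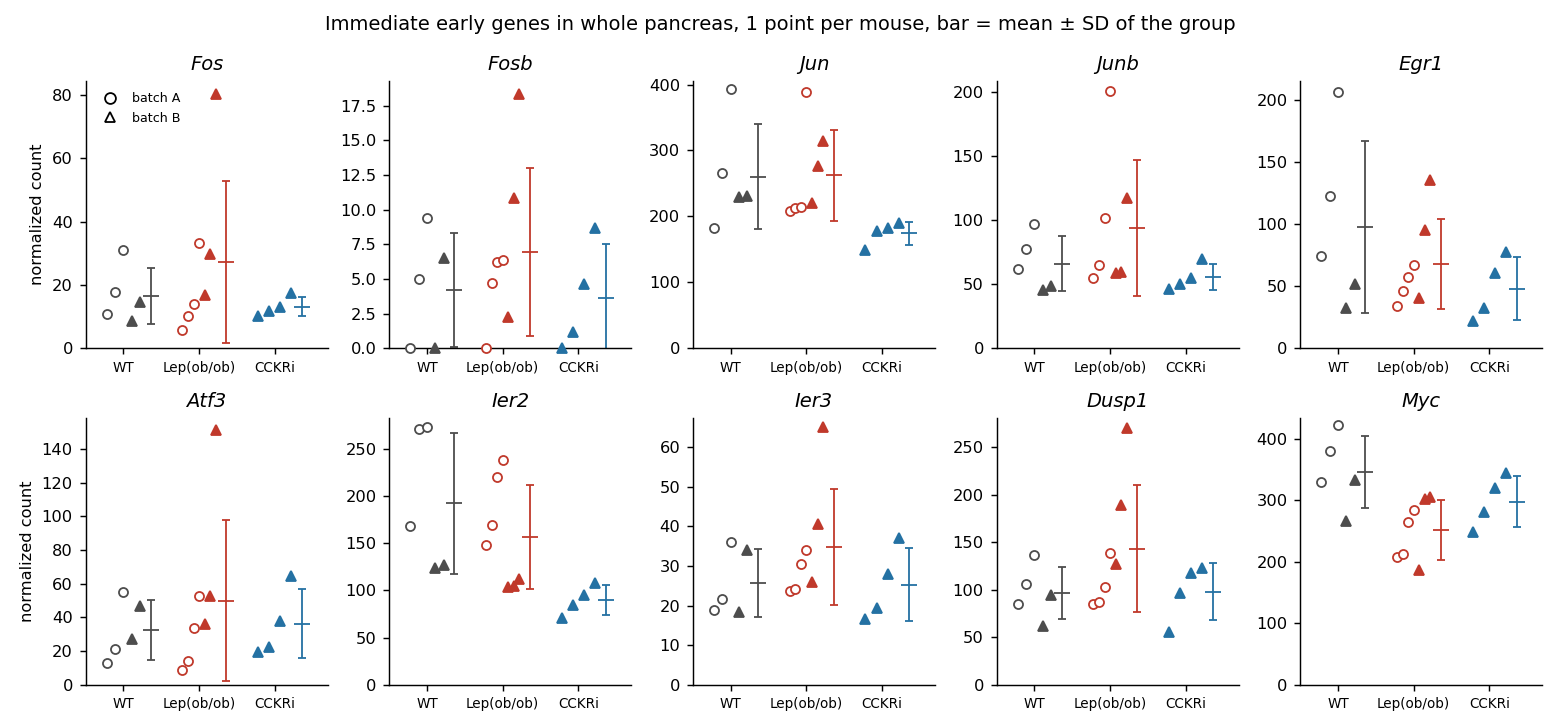
Normalized counts of the 10 members (vertical axes, linear and of different heights) in each of the 16 mice by group, with batch A as open circles and batch B as filled triangles and the group mean ± SD beside them. The groups overlap for most members, and Lep(ob/ob) mouse 463 of batch B is the highest point for Fos, Fosb, Atf3, Ier3 and Dusp1.

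Among the AP-1 subunits, Fos (chr12:85473890-85477273, mm10) was low, at 7 to 114 reads per mouse. Its normalized counts were 10.8, 17.6, 31.0, 14.6 and 8.65 in WT mice and 5.71 to 80.5 with a median of 16.9 in Lep(ob/ob) mice, whereas the CCKRi mice had 17.3, 10.2, 11.9 and 13.1. The highest value was that of mouse 463, and the next were 33.4 and 29.8 in Lep(ob/ob) mice 417 and 461, so that 3 of 7 obese mice stood near or above the highest WT mouse. These 3 were among the mice set aside for adipocyte and lymph node markers. Their macrophage markers summed to 228 to 1239 CPM, against 43.2 to 207 CPM in the other 4, and the part of such cells was not tested. Of the other 4, Lep(ob/ob) mouse 447 lay below all WT mice and 3 lay among them.

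Fosb (chr7:19302696-19310051), a close relative of Fos, had 0 to 26 reads per mouse and was below the filter on low counts in the fit over all mice. Without that filter, and in batch B alone, it was tested and not called by edgeR in any comparison between groups. It had no read in 2 WT mice, 1 Lep(ob/ob) mouse and 1 CCKRi mouse, where a count of 0 allows up to 3 reads, or 2.45 to 4.04 normalized counts. Its highest normalized counts were 18.4 and 10.8, in Lep(ob/ob) mice 463 and 461.

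Jun (chr4:95049034-95052222) was at 393, 182, 266, 229 and 230.3 normalized counts in WT, at 209 to 389 with a median of 221 in Lep(ob/ob), and at 182, 177, 189.7 and 149 in CCKRi mice. The 4 CCKRi mice all lay below the 7 Lep(ob/ob) mice, and overlapped WT. Junb (chr8:84974484-84978718) was at 61.9, 77.7, 96.9, 45.4 and 48.7 in WT, at 54.6 to 201 with a median of 65.3 in Lep(ob/ob), and at 70.0, 46.6, 55.0 and 50.1 in CCKRi mice. Lep(ob/ob) mouse 472 was the highest for Junb and the second highest for Jun, after a WT mouse, yet had 14.0 normalized counts of Fos. The exons of Jun overlap 232 bases of Junos, an antisense gene, and those of Junb 173 bases of Prdx2 on the opposite strand, and the strand setting of the counting is not given in the sources used here.

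Egr1 (chr18:34859823-34864984) was at 122, 74.1, 206, 51.9 and 32.4 normalized counts in WT, at 34.3 to 136 with a median of 57.6 in Lep(ob/ob), and at 60.6, 77.3, 21.6 and 32.2 in CCKRi mice. The 2 highest mice were WT mouse 5494 of batch A and Lep(ob/ob) mouse 463 of batch B, and all groups overlapped. Atf3 (chr1:191170296-191218039) was at 55.2, 12.9, 21.0, 47.0 and 27.0 in WT, at 8.98 to 151 with a median of 36.05 in Lep(ob/ob), and at 64.5, 19.6, 22.6 and 38.1 in CCKRi mice. It had the widest range of the 9 members with reads in every mouse, 16.8-fold from Lep(ob/ob) mouse 447 to Lep(ob/ob) mouse 463.

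Myc (chr15:61985391-61990374) was the most even member, with a coefficient of variation of 21.5% over the 16 mice against 88.5% for Fos. It was at 329.8, 422, 379.7, 332.45 and 266 normalized counts in WT, at 186 to 306 with a median of 265 in Lep(ob/ob), and at 249, 344, 280.3 and 319 in CCKRi mice. Mouse 463, the highest for 5 members, was the lowest of all for Myc.

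Ier2 (chr8:84661331-84662852), which encodes a nuclear protein, was at 271, 168, 273, 123 and 127 normalized counts in WT, at 103 to 238 with a median of 148 in Lep(ob/ob), and at 70.8, 108, 94.9 and 84.6 in CCKRi mice. Ier3 (chr17:35821684-35822923), a stress-induced regulator of cell survival, was at 21.5, 18.8, 35.97, 34.1 and 18.4 in WT, at 23.7 to 65.0 with a median of 30.4 in Lep(ob/ob), and at 36.98, 27.9, 19.4 and 16.7 in CCKRi mice. Ier2 in CCKRi mice lay below all WT mice, and the WT mice nearest to them were the 2 of the same batch.

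Dusp1 (chr17:26505590-26562128) was at 84.8, 136, 106, 94.1 and 61.6 normalized counts in WT, at 85.0 to 270.5 with a median of 127 in Lep(ob/ob), and at 117, 96.9, 56.1 and 123 in CCKRi mice. The 2 highest were Lep(ob/ob) mice 463 and 461, both of batch B, and the 3 Lep(ob/ob) mice of batch B all lay above the other mice of that batch. In batch B, 33.2% of all genes did not overlap between Lep(ob/ob) and WT mice, and 8.73% between CCKRi and Lep(ob/ob) mice. The share for both at once was not computed.

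For Lep(ob/ob) against WT, none of the 9 members tested passed, where 9.07% of the 13660 genes tested did (edgeR's quasi-likelihood test with batch as a covariate, Benjamini-Hochberg adjustment over all genes tested). Of the 9, 6 had higher fitted values and 3 lower, with a median log2 fold change of 0.37 against -0.02 over all genes, and 1 had an unadjusted p under 0.05. That member was Myc, at a log2 fold change of -0.47 ± 0.15 (SE, 95% interval -0.79 to -0.14, adjusted p = 0.072). DESeq2 called Myc alone, at -0.46 (adjusted p = 0.0482), and so did edgeR without Lep(ob/ob) mouse 461, at -0.52 (adjusted p = 0.0489).

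The largest differences in the other direction were those of Junb, 0.53 ± 0.29 (SE, adjusted p = 0.285 by edgeR), Fos, 0.50 ± 0.53 (adjusted p = 0.618), and Dusp1, 0.46 ± 0.29 (adjusted p = 0.358). Atf3 differed by 0.42 ± 0.52 and Ier3 by 0.37 ± 0.29, while Egr1 differed by -0.51 ± 0.47, Ier2 by -0.28 ± 0.15 and Jun by 0.0075 ± 0.19, all log2 fold changes with SE. The interval for Jun ran from -0.40 to 0.42, and that for Fos from -0.63 to 1.62, so that a fall of Fos by more than 0.63 or a rise by more than 1.62 on the log2 scale lay outside it, and smaller changes could not be told from 0. The groups overlapped for all 10 members, where 4.19% of 13637 genes did not overlap. Without the 4 mice set aside for adipocyte and lymph node markers, the fitted differences of Fos and Atf3 were -0.53 and -0.38.

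**Figure D2:**
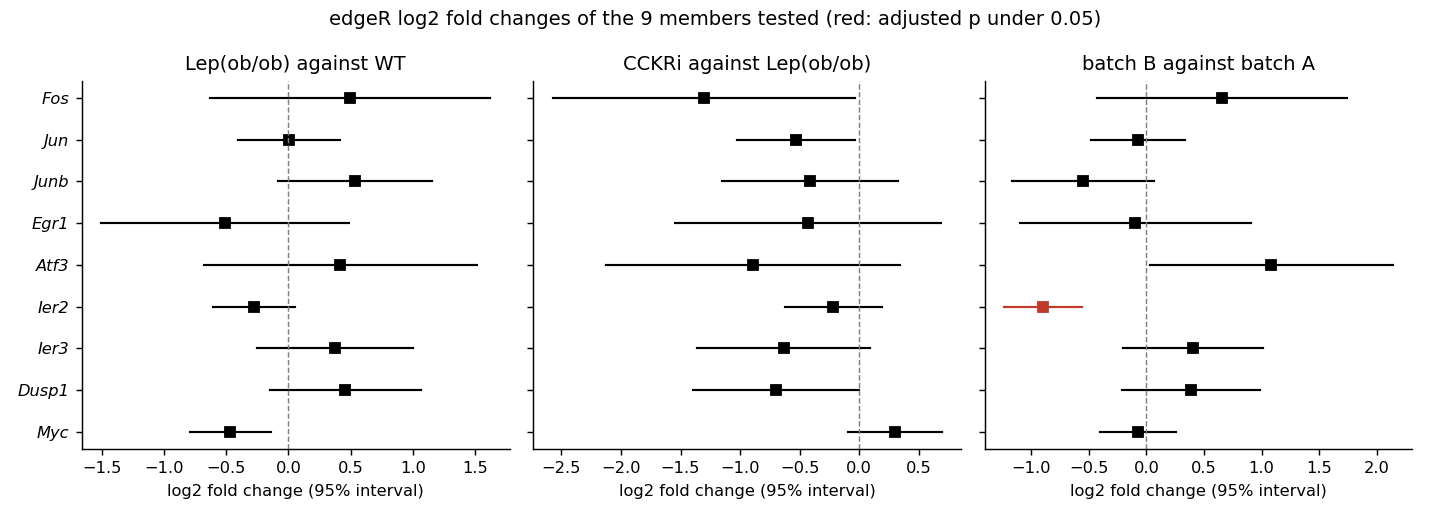
Log2 fold changes from edgeR with 95% intervals (horizontal axes) of the 9 members tested (vertical axis), for Lep(ob/ob) against WT, CCKRi against Lep(ob/ob) and batch B against batch A. Intervals of most members cross 0, and Ier2 between batches (red) is the only one with an adjusted p under 0.05.

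For CCKRi against Lep(ob/ob), again none of the 9 members passed in edgeR's test, where 0.0586% of the genes tested did. The fitted values of 8 of the 9 were lower in CCKRi mice, with a median log2 fold change of -0.53 against -0.01 over all genes, and Myc was at 0.30 ± 0.19. Markers of macrophages (median -1.22, 6 of 6 with an unadjusted p under 0.05) and of fibroblasts (median -1.03, 5 of 6) were also lower in the fit, with none called. Their sums overlapped, at 43.2 to 1239 CPM in untreated and 142 to 585 CPM in treated Lep(ob/ob) mice for macrophages and 218 to 2226 CPM and 363 to 1259 CPM for fibroblasts, and their part in the members' values was not tested. DESeq2 called no member among the 7 to which it gave an adjusted p. Unadjusted p values were under 0.05 for 3 members, against 14.3% of all genes.

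These 3 were Fos, at -1.30 ± 0.60 (SE, 95% interval -2.57 to -0.03, edgeR adjusted p = 0.345), Dusp1, at -0.70 ± 0.33 (adjusted p = 0.35), and Jun, at -0.53 ± 0.23 (adjusted p = 0.332). Within batch B alone, which holds all CCKRi mice, the differences were -1.62 for Fos, -0.93 for Dusp1 and -0.57 for Jun, each with an adjusted p of 0.327 by edgeR. Jun did not overlap between the groups, where 6.07% of genes did not, and within batch B neither Jun nor Dusp1 overlapped, where 8.73% of genes did not. Without mouse 463 alone the differences of Fos and Dusp1 were -0.43 and -0.37, and without all 4 mice set aside they were 0.14 and -0.069, while that of Jun was -0.55. Mouse 463 had the highest summed adipocyte (5290 CPM), macrophage (1239 CPM, against 43.2 to 585 in the other 15 mice) and fibroblast markers (2226 CPM, against 218 to 1259). It was also highest for lymphocyte (54.5 CPM, against 0.712 to 41.1), endothelial (298 CPM, against 85.9 to 227) and smooth muscle markers (162 CPM, against 20.0 to 159). Every marker summed was detected in this mouse, and the part of these cells in the values of Fos, Atf3 and Dusp1 was not tested.

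The antagonists were given at different doses, so the values of the members stand side by side without a comparison. Fos was at 17.3 and 10.2 normalized counts with proglumide and at 11.9 and 13.1 with lorglumide. Egr1 was at 60.6 and 77.3 with proglumide and at 21.6 and 32.2 with lorglumide, and Dusp1 at 117 and 96.9 and at 56.1 and 123.

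For CCKRi against WT, edgeR called none of the 9 members and 5.57% of all genes, and DESeq2 called none either. The median log2 fold change of the members was -0.47 against -0.02 over all genes, and 1 unadjusted p was under 0.05, that of Ier2 (log2 fold change -0.49 ± 0.21, SE, edgeR adjusted p = 0.219). Ier2 was the only member whose groups did not overlap, where 11.5% of genes did not. Without the batch term its difference was -1.10 with an adjusted p of 0.0341 by edgeR, in a fit that called 10.5% of all genes, and within batch B it was -0.46 (adjusted p = 0.536).

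Between the batches, 35.7% of all genes differed at equal group in edgeR's test, and 1 of the 9 members did. Ier2 was lower in batch B by a log2 fold change of -0.90 ± 0.16 (SE, 95% interval -1.23 to -0.56, adjusted p = 0.000715), and it was called whichever mouse was left out. In WT and Lep(ob/ob) mice its normalized counts were 148 to 273 in the 7 mice of batch A and 103 to 127 in the 5 of batch B, without overlap, as for 11.8% of genes. Atf3 differed the other way, by 1.09 ± 0.50 (adjusted p = 0.0996 by edgeR), and Junb by -0.55 ± 0.29 (adjusted p = 0.146). Atf3 passed without WT mouse 5489 (1.38, adjusted p = 0.0362 by edgeR), and Junb without Lep(ob/ob) mouse 463 (-0.80, adjusted p = 0.0478). The other 6 lay between -0.10 for Egr1 and 0.66 for Fos, where leaving out mouse 463 gave -0.046. Batch B libraries were shallower and their 50 most counted genes took less of the reads, 48.3% to 77.0% against 79.0% to 84.6% in batch A, and markers of cell types differed as well. Of the acinar markers 6 of 8 were called lower in batch B (median log2 fold change -1.10, sums of 302964 to 336374 CPM in batch A and 172854 to 308007 CPM in batch B). Of the macrophage markers 2 of 6 were called higher (median 1.03, 43.2 to 228 CPM and 142 to 1239 CPM), as were 2 of 6 fibroblast markers (median 0.18, 218 to 944 CPM and 363 to 2226 CPM). Calls were also made for 2 of 8 islet markers (lower, median -0.87), 2 of 6 endothelial markers (lower, median 0.007) and 1 of 6 adipocyte markers (higher, median 1.07). The part of these in the value of Ier2 was not tested.

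**Figure D3:**
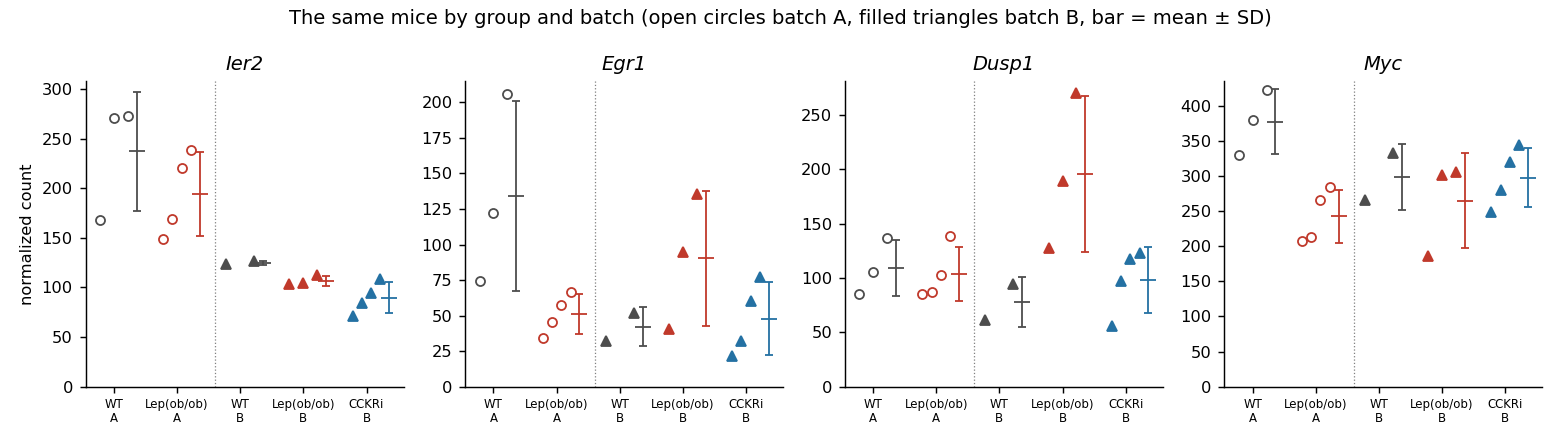
Normalized counts of Ier2, Egr1, Dusp1 and Myc (vertical axes) in each mouse, by group and batch, with the mean ± SD beside the points. Ier2 is lower in all batch B mice than in all batch A mice, and the order of WT and Lep(ob/ob) for Egr1 and Dusp1 is not the same in both batches.

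Whether the effect of genotype was alike in both batches was tested as an interaction over the 12 WT and Lep(ob/ob) mice, in which Fosb could be tested too. No gene was called by edgeR (0% of 14221 genes, with 11.9% at an unadjusted p under 0.05, and 51 genes but no member by DESeq2). Of the 10 members, 2 had an unadjusted p under 0.05, Egr1 with a difference of 2.43 ± 0.65 (SE, adjusted p = 0.332) and Dusp1 with 1.35 ± 0.44 (adjusted p = 0.375), both on the log2 scale and more positive in batch B. Without Lep(ob/ob) mouse 464 both passed, when 1228 genes in all did. Markers of islets (median -1.36, 7 of 8 with an unadjusted p under 0.05), lymphocytes (median 3.29, 4 of 5) and adipocytes (median 2.36, 3 of 6) also had such an interaction in this fit without being called. Heat shock genes did as well (median 0.81, 2 of 8), again with none called. The part of these lists in the values of Egr1 and Dusp1 was not tested.

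In batch A, Egr1 was at 74.1 to 206 normalized counts in 3 WT mice and at 34.3 to 66.7 in 4 Lep(ob/ob) mice, without overlap, and differed by -1.32 on the log2 scale (adjusted p = 0.0417 by edgeR). In batch B it was at 32.4 and 51.9 in WT and at 40.6 to 136 in 3 Lep(ob/ob) mice, and the difference was 1.07 (adjusted p = 0.365). Myc was also called in batch A, where 8.68% of all genes were, at -0.59 with an adjusted p of 0.0287 by edgeR, and was at -0.21 with an adjusted p of 0.686 in batch B. Egr1 and Myc were the members that did not overlap in batch A, where 21.1% of genes did not. In batch B, where 33.2% of genes did not overlap between 2 WT and 3 Lep(ob/ob) mice, Fos, Junb and Dusp1 were higher and Ier2 lower in all Lep(ob/ob) mice.

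Across the 16 mice, Fos went with some members and not with others. The permutations shuffled all 16 mice without regard to group or batch, so differences between groups or batches can add to these relations. On log2(normalized count + 1), Pearson's r with Fos was 0.82 for Dusp1 (permutation p = 0.00013, adjusted over 9 relations 0.00117, Spearman's rho 0.83 with p = 0.00016, adjusted 0.00144). It was 0.76 for Ier3 (permutation p = 0.00079, adjusted 0.00355, rho 0.63 with p = 0.0107, adjusted 0.0321), 0.72 for Fosb (permutation p = 0.00135, adjusted 0.00405, rho 0.73 with p = 0.00201, adjusted 0.00904) and 0.69 for Atf3 (permutation p = 0.00331, adjusted 0.00745, rho 0.53 with p = 0.0379, adjusted 0.0568), so that Atf3 passed by r and not by rho. For Egr1 r was 0.60 (permutation p = 0.0128, adjusted 0.023, rho 0.58 with p = 0.0207, adjusted 0.0373).

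The other 4 members did not pass by Pearson's r. Junb had an r of 0.49 (permutation p = 0.0554, adjusted 0.0831, rho 0.59 with p = 0.0188, adjusted 0.0373, past the threshold by rho alone), and Jun had 0.21 (permutation p = 0.432, adjusted 0.486, rho 0.12 with p = 0.665, adjusted 0.855). Ier2 had -0.13 (permutation p = 0.646, adjusted 0.646, rho -0.08 with p = 0.762, adjusted 0.857) and Myc -0.28 (permutation p = 0.289, adjusted 0.372, rho -0.01 with p = 0.987, adjusted 0.987). Without the 2 mice farthest from the median of Fos, Lep(ob/ob) mice 463 and 447, r was 0.73 for Dusp1, 0.62 for Ier3, 0.58 for Fosb, 0.55 for Egr1 and 0.30 for Atf3, so that the relation with Atf3 rested on those mice. Within the batches r was 0.75 in the 7 mice of batch A and 0.89 in the 9 of batch B for Dusp1, 0.55 and 0.86 for Ier3, 0.66 and 0.75 for Fosb, 0.47 and 0.91 for Atf3, and 0.56 and 0.76 for Egr1. The relation was positive in each batch for all 5.

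**Figure D4:**
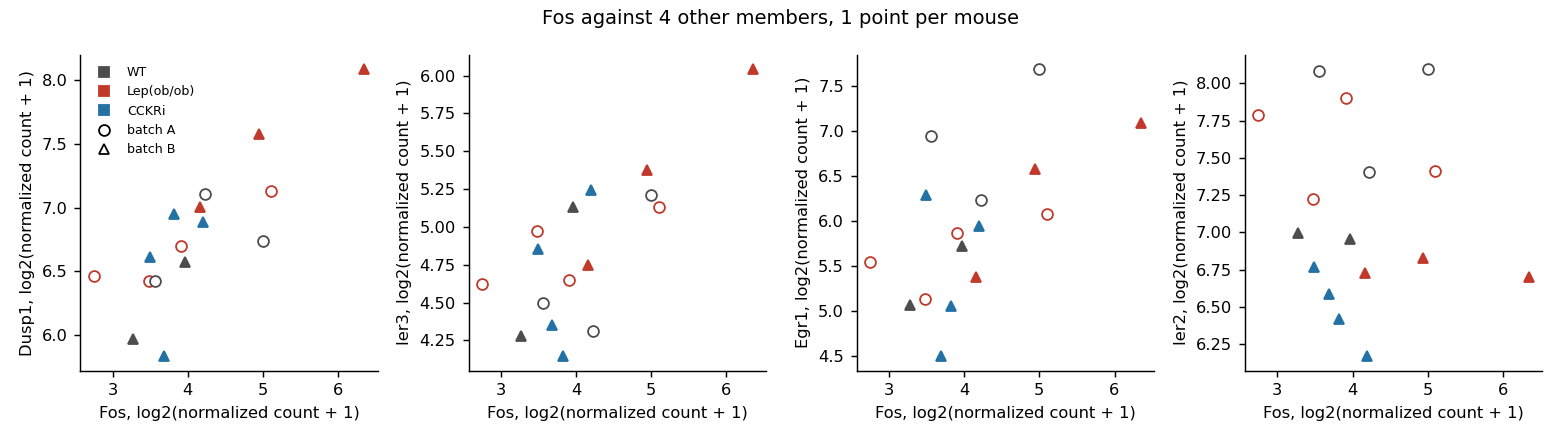
Fos (horizontal axes) against Dusp1, Ier3, Egr1 and Ier2 (vertical axes) as log2(normalized count + 1), 1 point per mouse, coloured by group, with batch A open and batch B filled. Dusp1, Ier3 and Egr1 go up with Fos in both batches, whereas Ier2 separates by batch and not by Fos.

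With the group and batch means removed from log2 CPM, Fos and Dusp1 still varied together (r = 0.79 over 16 mice, a description), as did Egr1 and Ier3 (0.77), Egr1 and Dusp1 (0.74), Fos and Egr1 (0.72) and Fos and Ier3 (0.71). Each member was also set against the mean of the other members tested. Over the 16 mice Egr1 was closest to it at 0.85, followed by Fos at 0.68 and Junb at 0.62, and Jun at 0.40, Ier2 at 0.15 and Myc at -0.09 were farthest. Without the 4 mice set aside Egr1 was still closest, at 0.77, but the order of the others changed. Ier3 fell from 0.55 to 0.29 and Dusp1 from 0.60 to 0.36, and these were then farthest, with Ier2 at 0.44 and Myc at 0.55. In batch A alone Dusp1 was at 0.13 and Ier3 at 0.25, and in batch B they were at 0.68 and 0.90. The points share libraries and their depth.

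A wider list of 50 further early and delayed early genes, of which 45 could be tested, was set beside the members. In Lep(ob/ob) against WT, 12 of the 45 were called, 10 higher and 2 lower, where 9.07% of all genes were called, 810 higher and 429 lower. The median log2 fold change of the list was 0.30 against -0.02 over all genes. Those that rose most were Dusp4, a phosphatase of nuclear MAP kinases, at 2.16 ± 0.61 (SE, edgeR adjusted p = 0.036), Per1, a repressor of the circadian clock, at 1.78 ± 0.34 (adjusted p = 0.00321), and the kinase Plk3 at 1.72 ± 0.22 (adjusted p = 0.000167). They were followed by Maff, a small Maf factor, at 1.49 ± 0.29, Bhlhe40, another clock repressor, at 1.39 ± 0.21, and Hbegf, a growth factor that activates the EGF receptor, at 1.21 ± 0.27. Plk2 fell by 1.23 ± 0.19 (adjusted p = 0.000609) and Nfkbiz, a nuclear partner of NF-kappa B, by 1.05 ± 0.26 (adjusted p = 0.016) on the log2 scale. Nfkbiz did not pass edgeR's test without the batch term (adjusted p = 0.198), nor without WT mouse 5494 (0.0564) or WT mouse 59 (0.0523).

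Per1 was at 55.2 to 313 normalized counts in WT and 323 to 878 in Lep(ob/ob), and Plk3 at 11.9 to 13.0 and 30.6 to 52.02, while Plk2 was at 1608 to 2474 and 562 to 1143, each without overlap. Of the 8 genes named above, 7 did not overlap and Nfkbiz did, where 4.19% of all genes did not. The 8 were named because they were called between these same groups, so their lack of overlap adds nothing to the calls. The count of 12 fell to 7 without WT mouse 58 and to 6 without WT mouse 59, and batch B alone called 1 of the list. Markers moved with the genotype. Those of islets were higher (6 of 8 called, 856 to 1940 CPM against 3220 to 9634), adipocyte markers had a median log2 fold change of 1.53 with 5 of 6 at an unadjusted p under 0.05 and 1 called, lower, and 2 of 8 acinar (lower) and 2 of 6 duct markers (1 higher, 1 lower) were called. Dusp4 was highest in mouse 463, at 131 normalized counts against a Lep(ob/ob) median of 26.1, and without the 4 mice set aside it was at 1.16 (adjusted p = 0.0634 by edgeR). The part of these markers was not tested.

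In CCKRi against WT, 5 of the 45 passed in edgeR's test, where 5.57% of all genes did. Per1 at 1.98 ± 0.43, Maff at 1.53 ± 0.36, Plk3 at 1.44 ± 0.27 and Hbegf at 1.34 ± 0.34 were higher and Plk2 at -1.01 ± 0.24 was lower, as log2 fold changes with SE. Without WT mouse 58, 1 of them passed, Plk3. Islet markers were higher in this comparison too (6 of 8 called, median log2 fold change 2.44, 856 to 1940 CPM against 3367 to 17690 CPM), and acinar markers had a median of -0.63 with none called. Calls were also made for 2 of 6 duct markers (1 higher, 1 lower) and 1 of 6 adipocyte markers (lower, with a list median of 1.12). Their part in these values was not tested. None of the 45 passed in CCKRi against Lep(ob/ob), where 0.0586% of all genes did, and 7 had an unadjusted p under 0.05, a share near the 14.3% of all genes. Of the 45, 5 differed between the batches, where 35.7% of all genes did, with Nfkbiz (1.42 ± 0.26) and Klf6 (0.62 ± 0.19) higher in batch B and Jund (-1.08 ± 0.18), Cited2 (-0.79 ± 0.20) and Btg2 (-0.78 ± 0.19) lower. The comparisons with WT share the 5 WT mice.

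**Figure D5:**
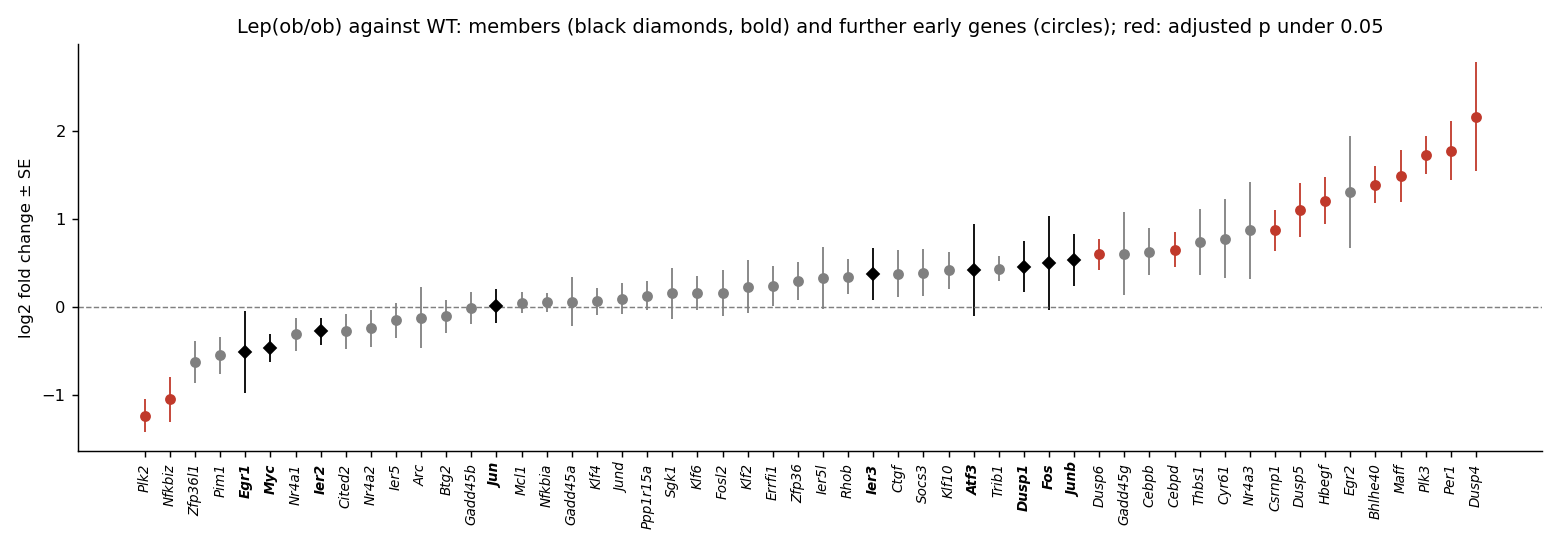
Log2 fold change ± SE (vertical axis) of Lep(ob/ob) against WT for the 9 members tested (black diamonds) and 45 further early genes (circles), in order of size. The 12 red circles have an adjusted p under 0.05, and no member is among them.

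Of 21 genes upstream of the members, from the CCK receptors through Gq and MAP kinases to serum response factor and CREB, 20 could be tested. None passed by edgeR in Lep(ob/ob) against WT, CCKRi against Lep(ob/ob) or CCKRi against WT, where 9.07%, 0.0586% and 5.57% of all genes did. Unadjusted p values were under 0.05 for 3, 3 and 6 of the 20, against 23.8%, 14.3% and 16.7% of all genes. Cckar, the CCK receptor of acinar cells, was present in WT mice at 4154 to 11586 normalized counts, in untreated Lep(ob/ob) mice at 2589 to 8074 and under an antagonist at 2239 to 4584. Its log2 fold change was -0.55 ± 0.25 (SE, edgeR adjusted p = 0.182) in Lep(ob/ob) against WT and -0.30 ± 0.30 (adjusted p = 0.641) in CCKRi against Lep(ob/ob). In CCKRi against WT it was -0.85 ± 0.32 (edgeR adjusted p = 0.169), and in batch B against batch A -0.65 ± 0.25 (adjusted p = 0.0543). Cckbr, the gastrin receptor, had 0 to 9 reads per mouse and was not tested.

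Srf, which encodes serum response factor, differed by 0.028 ± 0.11 in Lep(ob/ob) against WT and by -0.34 ± 0.13 (adjusted p = 0.295 by edgeR) in CCKRi against Lep(ob/ob). Between the batches 8 of the 20 passed, a share near the 35.7% of all genes that did. Map2k2 (-1.36 ± 0.15), Gna11 (-0.81 ± 0.12), Srf (-0.55 ± 0.11), Map2k1 (-0.52 ± 0.14), Mapk3 (-0.47 ± 0.13), Gnaq (-0.31 ± 0.12) and Mapk9 (-0.25 ± 0.09) were lower in batch B, and Elk4 (0.70 ± 0.16), a partner of serum response factor, was higher.

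Of 8 heat shock genes, 7 were tested, and none passed in edgeR's test between groups, or between batches, where 35.7% of all genes did. In Lep(ob/ob) against WT 1 had an unadjusted p under 0.05, against 23.8% of all genes, and in the other 3 comparisons none had, against 14.3%, 16.7% and, between batches, 46.1%. In the interaction of genotype and batch all 8 were tested and none was called by edgeR. There 2 of the 8 had an unadjusted p under 0.05, against 11.9% of all genes. Their median difference was 0.81 on the log2 scale, against -0.02 over all genes. The 6 genes of the integrated stress response, which acts with Atf3, did not pass between groups (1, 0 and 1 unadjusted p under 0.05 in Lep(ob/ob) against WT, CCKRi against Lep(ob/ob) and CCKRi against WT, as for 23.8%, 14.3% and 16.7% of all genes), while 3 of the 6 differed between the batches, where 35.7% of all genes did. Ddit3 (0.98 ± 0.21) was higher and Asns (-0.77 ± 0.23) and Sesn2 (-0.60 ± 0.22) were lower in batch B, as log2 fold changes with SE.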

How the data were processed

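Libraries were strand-specific and poly(A)-selected, from snap-frozen whole pancreas. Per the submitters' processing notes, the authors used Trim Galore 0.6.7 with cutadapt 3.5 for trimming and STAR 2.7.9 for alignment to mm10. The read counter, its strand setting and the annotation are not given in the sources used here. The authors deposited raw counts for 24411 gene symbols and a normalized signal for 17548 genes, which on the values is the count divided by 1 size factor per mouse (0.617 to 1.44), without batch correction.

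Here the raw counts were fitted with edgeR 4.0.16 and limma 3.58.1 under R 4.3.3 (TMM, filterByExpr, 3 groups plus batch, quasi-likelihood test, Benjamini-Hochberg adjustment over 13660 genes). A prior count of 2 went into log2 CPM, and alternatives included DESeq2 1.42.0, other scalings and filters, single batches and leaving out each mouse. The model was tested on simulated counts with known changes in Lep(ob/ob) mice and no batch effect. Only Lep(ob/ob) against WT was checked this way, so the batch and antagonist fits were not. Correlations with Fos used log2(normalized count + 1), 100000 permutations and two-sided p values (Python 3.11.15, numpy 2.4.6, scipy 1.17.1, pandas 2.3.3). Each mouse is 1 library. The 37 pairs of libraries within a group differed by a chi-square per gene of 8.09 to 409, where sampling gives 1, so no library was a duplicate of another in its group. Values for pairs across groups are not given here. Floors cover counting error only.

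Positions, exons and exon lengths are from GENCODE M21, promoters from RefSeq. Of each member's 50-base stretches, 5.83% in Jun and 5.76% in Junb occur in 1 other gene, and none in the other 8. The members and the lists of further early, upstream, heat shock, stress response and marker genes were chosen with earlier results of these data known, as were the 4 mice set aside. All 10 members are named, as are called further early genes (at most 6 per direction and comparison), Cckar, Cckbr, Srf, called upstream genes and the 10 genes most like the members, of which 1 is not reported here. The relations with Fos and the alternatives for the further early genes were chosen after seeing the data.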

Additional observations from a re-analysis of the deposited data

Results flagged for a closer look

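Egr1 and Dusp1 were singled out because the effect of genotype differed between the batches at an unadjusted p under 0.05 in edgeR's interaction test. For Egr1 the log2 fold change of Lep(ob/ob) against WT was more positive in batch B by 2.43 (95% interval 1.01 to 3.84, adjusted p = 0.332), being -1.32 in batch A and 1.07 in batch B. For Dusp1 the difference was 1.35 (95% interval 0.40 to 2.29, adjusted p = 0.375), from -0.021 in batch A to 1.29 in batch B. Over the mice left out in turn the differences ran from 1.96 to 2.78 for Egr1 and from 1.04 to 1.66 for Dusp1. Without Lep(ob/ob) mouse 464 both passed edgeR's test, Egr1 at 2.73 with an adjusted p of 0.019 and Dusp1 at 1.53 with an adjusted p of 0.0392, when 1228 genes passed in place of 0. The batches hold 2 and 3 WT mice. In the same test the effect of genotype on islet, lymphocyte and adipocyte markers differed between the batches at unadjusted p values (7 of 8, 4 of 5 and 3 of 6 under 0.05). Among the heat shock genes 2 of 8 did so (median difference 0.81), and among the further early genes 7 of 47 (median 0.33). Over all genes the share was 11.9% and the median -0.02. None of these was called, and their part was not tested.

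On log2(normalized count + 1), no mouse stood apart from its group by Dixon's test at 95% in the 30 groups of values examined. These were 10 members in 3 groups, where chance would flag about 1 in 20. The untransformed normalized counts, on which high values lie farther out, were not examined this way. On them Lep(ob/ob) mouse 463 had 80.5 for Fos, against 5.71 to 33.4 in the other Lep(ob/ob) mice. For Atf3 it had 151, against 8.98 to 52.8.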

How the results depend on the processing

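No paired analysis was possible because the mouse numbers in the labels differ from group to group. Scaling by RLE or without the 50 most counted genes moved the median of all genes by under 0.1 in the comparisons run. Counts of members called stayed at the values given except as follows. For Lep(ob/ob) against WT, DESeq2 called 1 (Myc), batch A alone 2 (Egr1 and Myc), and leaving out mice gave 0 to 1 (Myc without mouse 461). For batches, WT mice alone gave 2 (of 4168 genes in all), the 12 mice other than the 4 set aside for adipocyte and lymph node markers 2 (of 6147), and leaving out mice 1 to 2. For CCKRi against WT, the fit without batch gave 1 (Ier2), and for the interaction leaving out mice gave 0 to 2.

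Counts over all genes moved more. In Lep(ob/ob) against WT they were 798 without the batch term, 782 with at least 10 counts in every mouse, 8 in batch B alone and 858 to 1447 leaving out mice. In CCKRi against Lep(ob/ob) they were 570 without the batch term, 104 by DESeq2, 5 without the 50 most counted genes in TMM, 3 with only the 2 groups, 2 in batch B alone, 0 with either drug alone and 0 to 9 leaving out mice. In CCKRi against WT they were 1428 without the batch term, 438 with at least 10 counts, 278 with only the 2 groups, 13 in batch B alone, 239 with proglumide alone, 1342 without the 4 mice and 516 to 982 leaving out mice. Between batches untreated Lep(ob/ob) mice alone gave 1137 and leaving out mice 3770 to 5191. The interaction gave 51 by DESeq2 and 0 to 1228 leaving out mice. Of the further early genes, Lep(ob/ob) against WT called 7 without the batch term, 7 with at least 10 counts, 7 in batch A, 1 in batch B and 6 to 13 leaving out mice, and CCKRi against WT called 8 without the batch term, 2 with at least 10 counts, 2 with only the 2 groups, 1 in batch B, 0 with proglumide alone and 1 to 6 leaving out mice.

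Some member log2 fold changes, none called before, changed sign. For Lep(ob/ob) against WT these were Fos at -0.25, Jun at -0.073 and Dusp1 at -0.021 in batch A, Egr1 at 1.07 in batch B, Jun at -0.0037 with only the 2 groups, Fos at -0.53 and Atf3 at -0.38 without the 4 mice, and Jun between -0.14 and 0.20 leaving out mice. For CCKRi against Lep(ob/ob) they were Egr1 at 0.083 with proglumide alone, and Fos at 0.14 and Egr1 at 0.87 without the 4 mice, with Egr1 between -0.75 and 0.11 leaving out mice. For batches they were Fos at -0.82 and Dusp1 at -0.50 in WT alone, Egr1 at 0.79, Jun at 0.069 and Myc at 0.13 in Lep(ob/ob) alone, and Fos at -0.17 and Dusp1 at -0.082 without the 4 mice. Leaving out mice, the batch differences ran from -0.046 to 0.97 for Fos, -0.16 to 0.065 for Jun, -0.53 to 0.28 for Egr1 and -0.18 to 0.020 for Myc. The likeness to the other members was 0.55 for Myc without the 4 mice and -0.42 for Ier2 in batch B. In each case the cause was not tested. Fosb, at 0 to 26 reads, was tested between the 3 groups only without the filter on low counts, in batch B alone and with proglumide alone, and was not called.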

Other observations

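The genes whose level followed the members most closely from mouse to mouse were not early genes of either list. With the group and batch means removed from log2 CPM, the gene closest to the mean of the members was Akr1b10, an aldo-keto reductase, with r = 0.92 over 16 mice, followed by Pnrc1, a nuclear receptor coactivator, at 0.89. Others among the closest were Blvra, which reduces biliverdin, at 0.86, Sgms1, a sphingomyelin synthase, at 0.86, Ptpn6, a tyrosine phosphatase of blood cells, at 0.86, 1810058I24Rik at 0.86, the small heat shock gene Hspb6 at 0.84, Gyg, which primes glycogen synthesis, at 0.84, and Hspa12b at 0.84. These are descriptions, chosen from the highest of 13651 genes, with all points sharing 16 libraries. The 5 WT mice had 34.1 to 60.0 normalized counts of Akr1b10, against 34.3 to 113 with the Lep mutation alone and 78.7 to 104.6 with an antagonist as well. Of the 45 further early genes, 28.9% had an r above 0.5, against 17.2% of all genes tested other than the members, with a median r of 0.30 against -0.02. The closest of them was Klf6, at 0.76 and rank 91.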
